A study of Mus musculus with 6 samples.

Results

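The 35 genes described here are p53 (Trp53), its regulators and targets, the kinases that signal DNA damage, and genes that repair broken or altered DNA. They were chosen by symbol from general knowledge of the pathway, with earlier results of these data known. All 35 are among the 55367 genes of the deposited table, 34 under the symbol used here and H2afx under its newer symbol H2ax. By role, 23 are counted as p53 targets and 12 as upstream or repair genes. The targets are 9 of cell cycle and growth arrest, 9 of death and survival, 3 of repair, and Mdm2 and Ppm1d. Mdm2 and Ppm1d are regulators as well. Roles were assigned from general knowledge, and whether each gene counted as a target depends on p53, in these or other mouse cells, was not tested. Cells were leukemia stem cells (LSCs) of a mouse acute myeloid leukemia (AML), sorted from bone marrow as YFP-positive, Lin-, Sca-1-, c-Kit+, CD16/32 high and CD34+ cells, with 3 WT and 3 Piezo1cKO libraries. Piezo1cKO mice carried Mx1-cre and Piezo1 fl/fl, WT mice were Piezo1 fl/fl littermates without Cre, and mice of both genotypes received pIpC at 8 to 10 weeks of age. Lin- bone marrow of either genotype was transduced with an MLL-AF9-YFP retrovirus and transplanted into irradiated recipients, so both groups share the fusion gene, the pIpC treatment and the irradiated host. Mx1-cre is driven by an interferon-inducible promoter that is active in most blood cells and in other tissues. Since donor marrow was transplanted, the deletion was carried by donor-derived cells and not by the recipients. Among donor-derived cells it was not limited to LSCs. No source says whether the 3 libraries of a group came from separate mice, so p-values measure the spread between these libraries, which may be technical.

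The p53 protein is a transcription factor that is kept low by Mdm2, a ubiquitin ligase, and Mdm4, its relative. DNA damage activates the kinases Atm and Atr, which through Chek2 and Chek1 stop the cell cycle and stabilise p53, and p53 then switches on genes of arrest, death and repair. MLL-rearranged AML usually keeps an unmutated p53 gene, and since p53 is regulated mainly at the level of the protein, its mRNA does not measure its activity.

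p53 binds a pair of decamers of similar sequence. The promoter window of RefSeq (GRCm38.p6, 250 bases before to 50 after the gene start) was at hand for 28 of the 35 members. It held at least 1 match to the p53 decamer, on either strand, in 9 of these 28 (32.1%), against 9.55% of all 27025 genes with a window. The 9 were 8 of the 17 targets and 1 of the 11 upstream and repair genes with a window. Of these 9 genes, 2 were higher, 4 lower and 3 not past the threshold in Piezo1cKO LSCs, by the test given below. Over all genes tested there, 31.6% were higher and 31.4% lower. Of the 7 members without a window, Trp53inp1, Tnfrsf10b, Perp, Xpc and H2afx were higher, while Zmat3 and Ddb2 did not pass. The split of the 9 genes leaves these members out. Cdkn1a was the member with 2 exactly matching decamers at most 13 bases apart, which 0.074% of all genes with a window hold. The stretches of 6 members whose values are described below are printed to show where these matches lie, in the direction of the gene, with the decamers in capitals. They lie on chr17:29090881-29090962 (plus strand) for Cdkn1a, chr10:117710910-117710969 (minus strand) for Mdm2, chr11:85311097-85311156 (plus strand) for Ppm1d, chr6:67037413-67037472 (minus strand) for Gadd45a, chr9:36797335-36797369 (minus strand) for Ei24 and chr11:69580259-69580318 (plus strand) for Trp53.
Cdkn1a: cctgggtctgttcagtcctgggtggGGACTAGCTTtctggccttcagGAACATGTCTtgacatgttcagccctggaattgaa
Mdm2: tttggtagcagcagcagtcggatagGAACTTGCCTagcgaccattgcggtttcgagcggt
Ppm1d: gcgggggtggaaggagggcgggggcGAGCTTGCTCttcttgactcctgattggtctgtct
Gadd45a: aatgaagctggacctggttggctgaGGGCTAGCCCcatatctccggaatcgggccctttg
Ei24: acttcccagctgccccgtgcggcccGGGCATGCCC
Trp53: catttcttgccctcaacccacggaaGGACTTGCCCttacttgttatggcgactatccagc
Only exact matches were counted and marked, so a decamer with a mismatch stays in lower case, as right after the second marked decamer of Cdkn1a. A match is a description of the letters and not a measured binding site, and a marked pair need not be the pair that p53 binds.

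The deposited values are log2 values drawn towards each gene's mean, so that differences on their scale are smaller than in the reads. The transform was undone, and normalized recovered reads, called reads below, are read numbers divided by a size factor for each library. Tests are limma fits of the deposited values of 16746 genes, and log2 fold changes are Piezo1cKO minus WT on the deposited scale unless a sentence names reads. Libraries held 14112122 to 15483616 recovered reads. Piezo1, the deleted gene, had 46.3 reads in Piezo1cKO against 101 in WT LSCs (log2 fold change -0.29, standard error 0.04, adjusted p = 5.8e-06). Of the sort markers, Kit rose from a mean of 2522 to 3425 reads (log2 fold change 0.31) and Cd34 from 3721 to 5796 (0.46). Of the genes of CD16/32, Fcgr3 had 5405 and 5323 reads (adjusted p = 0.574), while Fcgr2b fell from 3468 to 1667 (-0.75, adjusted p = 1.29e-13). Ly6a, which encodes Sca-1, had a mean of 0.660 reads in WT and 11.4 in Piezo1cKO LSCs (adjusted p = 0.000535). Marker sums of other cells moved with the genotype, except those of T cells, whose groups overlapped. Over the 3 libraries of a group, the 6 markers of mast cells and basophils summed to 4216 to 4424 reads in WT and 12174 to 12268 in Piezo1cKO LSCs, 6 of macrophages and dendritic cells to 2163 to 2355 and 8001 to 8217, 7 of B cells to 12201 to 12562 and 22325 to 22721, and 6 of neutrophils to 2480 to 2505 and 875 to 919. The 6 erythroid markers summed to 88.3 to 108 and 25.4 to 34.1, and the 6 of T cells to 59.6 to 68.6 and 61.4 to 104. Of the markers with a mean of at least 1, 5 of 6 mast cell and basophil, 3 of 5 macrophage and dendritic cell and 4 of 4 B cell markers passed as higher, 5 of 6 neutrophil markers as lower and 1 as higher, 1 of 3 erythroid markers as lower, and of 2 T cell markers 1 as higher and 1 as lower. Of the T cell markers, Cd8a was listed at 0, as was 1 of the 7 B cell markers. The part of these cells in the results below was not tested, and in bulk RNA fewer cells of a type and less RNA per cell cannot be told apart.

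In Piezo1cKO LSCs, members of the pathway moved in both directions. Gadd45a and Fas were the most strongly lowered, and Btg2 was the most strongly raised on the deposited scale, while Trp53 and Mdm2 both fell moderately. Of the 35 members, 16 were higher, 9 were lower and 10 did not pass an adjusted p of 0.05 (limma). Over all genes tested, 63% passed, 31.6% higher and 31.4% lower, so that the 71.4% of members that passed were near the background. The median log2 fold change was 0.07 over the members and 0.00 over all genes. In 15 members every Piezo1cKO library lay above every WT library and in 9 below, against 33.5% and 33.1% of all genes. Over 2-fold on reads, 6 members were higher and 3 lower. Of all genes fitted, 24.9% passed that limit, 12.7% higher and 12.2% lower. On the deposited scale 0 members passed it, beside 0.818% of all genes, and by an adjusted p of 0.05 alone 62.9% of all genes passed on reads. The 6 higher ones were Phlda3, Trp53inp1, Perp, Tnfrsf10b, Zmat3 and Xrcc5, with group means of at most 109.4 reads, and the 3 lower ones were Fas, Gadd45a and Ccng2. Compared per length, H2afx (148 RPKM, from recovered reads and exon length, in WT LSCs), Cdkn1a (119), Xpc (52.2) and Xrcc6 (45.5) had the highest levels, whereas 23 members were below 10 RPKM in both groups.

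**Figure D1:**
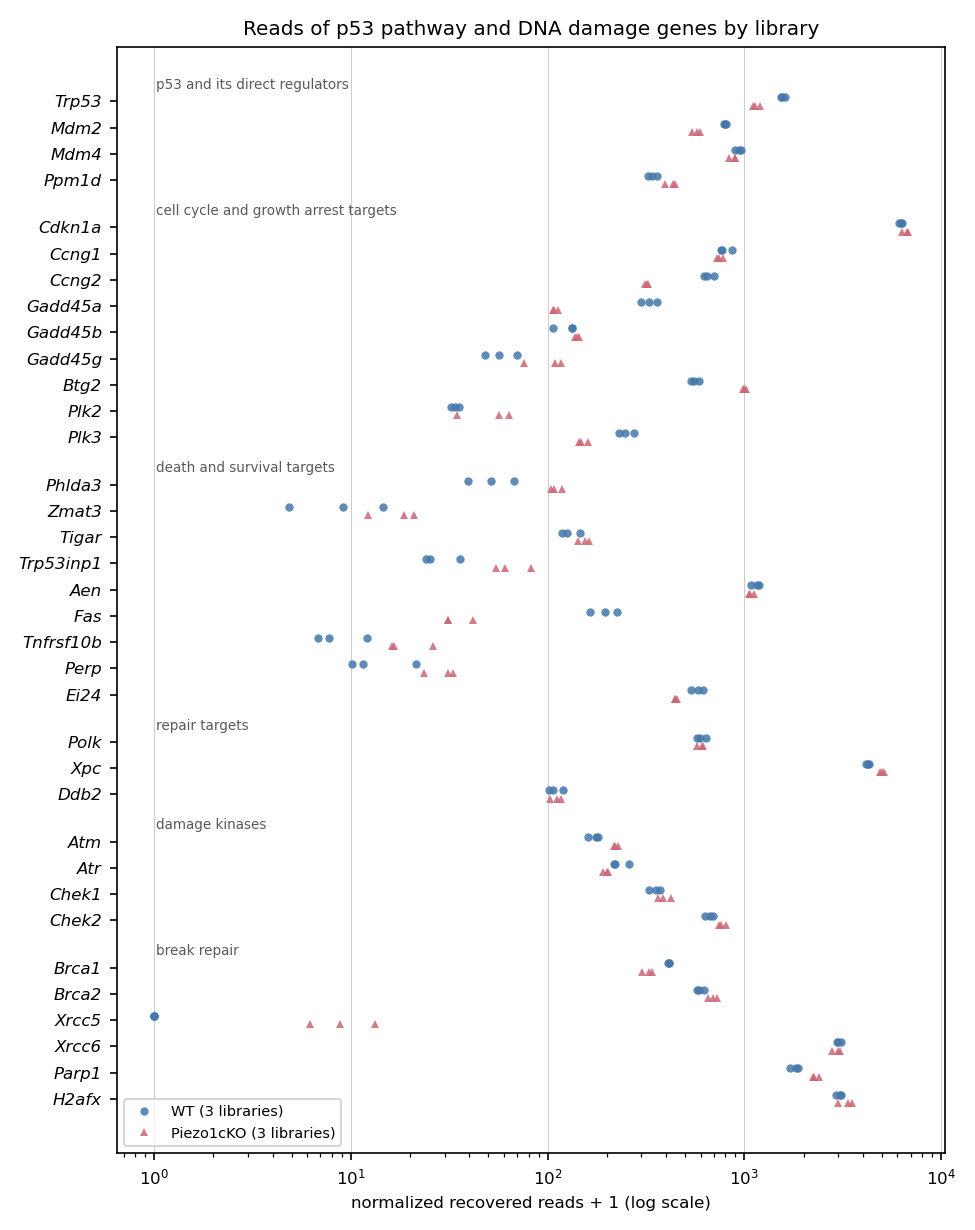
Normalized recovered reads plus 1 (log axis) of the 35 members in each of the 3 WT libraries (circles) and 3 Piezo1cKO libraries (triangles), ordered by role. Levels span from no reads (Xrcc5 in WT) to 6758 (Cdkn1a), and the groups lie clearly apart for Fas, Gadd45a, Ccng2 and Btg2.

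Trp53 (chromosome 11, 69580359 to 69591873 of GRCm38, plus strand) had 1607, 1539 and 1560 reads in WT replicates 1 to 3 and 1110, 1201 and 1127 in Piezo1cKO replicates 1 to 3. All 3 Piezo1cKO libraries were below all WT libraries, at 73.1% of the WT mean (log2 fold change -0.31, standard error 0.03, adjusted p = 1.12e-07). Mdm2 (chromosome 10, 117688875 to 117710758, minus strand), which marks p53 for degradation and is itself switched on by p53, had 788, 807 and 792 reads in WT and 598, 570 and 543 in Piezo1cKO LSCs. It also fell without overlap, to 71.7% (log2 fold change -0.30, standard error 0.03, adjusted p = 4.81e-07). Mdm4, which masks the activating part of p53, had 93.9% of the WT reads and overlapping groups, with a 95% interval of the log2 fold change from -0.13 to 0.01 (adjusted p = 0.136). Ppm1d, a p53-induced phosphatase that switches the damage signal off again, rose instead, from 324, 338 and 357 reads to 430, 393 and 441 (log2 fold change 0.17, standard error 0.04, adjusted p = 0.000798). The p53-induced antagonists Mdm2 and Ppm1d thus passed the test in opposite directions.

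Among the 9 targets of cell cycle and growth arrest, 4 were higher, 3 lower and 2 did not pass, and related genes differed in direction. Gadd45a (chromosome 6, 67035096 to 67037457, minus strand), a small protein that binds PCNA and stress kinases, had 357, 296 and 328 reads in WT and 107, 112 and 106 in Piezo1cKO LSCs. The groups were far apart, with Piezo1cKO at 33.1% of WT (log2 fold change -0.71, standard error 0.04, adjusted p = 4.06e-11). E230016M11Rik on the other strand covers 19.1% of the Gadd45a exon bases, and its reads could not be told from those of Gadd45a where counting ignored strand. Gadd45g rose from 47.1 to 68.6 reads in WT to 75.2 to 116 in Piezo1cKO LSCs (log2 fold change 0.22, standard error 0.05, adjusted p = 0.000719). Gadd45b, with means of 124 and 140 reads, did not pass (log2 fold change 0.07, 95% interval -0.02 to 0.15, adjusted p = 0.154). Ccng2, an unconventional cyclin linked to arrest, had 621, 647 and 698 reads in WT and 323, 312 and 321 in Piezo1cKO LSCs. All 3 Piezo1cKO values were near 48.6% of the WT mean (log2 fold change -0.60, standard error 0.04, adjusted p = 8.62e-11). Ccng1, its paralog and a classical p53 target, had 94.1% of the WT reads, and its groups overlapped (adjusted p = 0.203).

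Btg2 (chromosome 1, 134075170 to 134079120, minus strand), an antiproliferative factor that promotes mRNA deadenylation, rose from 534, 584 and 555 reads to 995, 1015 and 979. This was 1.79-fold, with no overlap (log2 fold change 0.53, standard error 0.03, adjusted p = 1.51e-10). Cdkn1a (chromosome 17, 29090976 to 29100727, plus strand), the CDK inhibitor that carries out the p53 arrest, had 6231, 6337 and 6148 reads in WT and 6364, 6758 and 6725 in Piezo1cKO LSCs. The groups did not overlap, but the difference was only 1.06-fold (log2 fold change 0.06, standard error 0.02, adjusted p = 0.0273), and the call was kept in 2 of 6 fits that left out 1 library. It was lost without WT replicates 1 or 3 or Piezo1cKO replicates 2 or 3, with adjusted p of 0.0603, 0.114, 0.122 and 0.11, respectively. Of the polo-like kinases, Plk3, which acts in stress and DNA damage responses, fell from 230 to 272 reads to 143 to 160 (log2 fold change -0.32, standard error 0.04, adjusted p = 1.51e-06). Plk2 had 33.0, 31.3 and 34.6 reads in WT and 55.4, 62.4 and 33.6 in Piezo1cKO LSCs, so that 1 Piezo1cKO library lay within the WT range. It passed on the deposited values (log2 fold change 0.10, adjusted p = 0.0312), but not on reads (adjusted p = 0.0538, limma-voom) and in only 1 of 6 fits that left out 1 library, the fit without Piezo1cKO replicate 3.

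**Figure D2:**
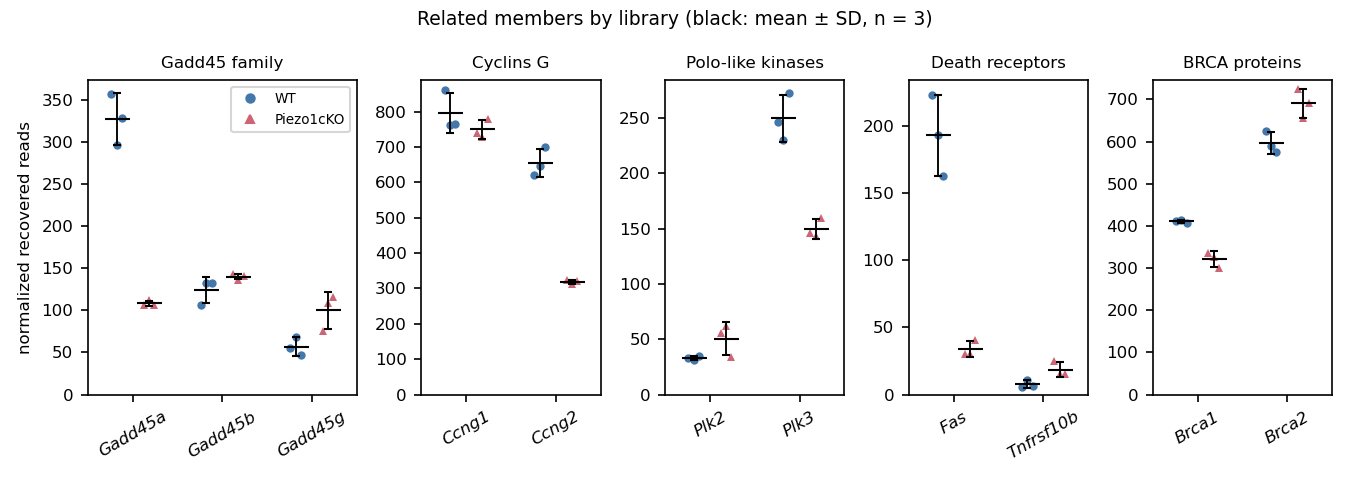
Normalized recovered reads (y axis, from 0, scaled for each panel) of related members in each library, WT as circles and Piezo1cKO as triangles, with the mean and SD in black (n = 3). Gadd45a fell while Gadd45g rose, Ccng2 fell beside Ccng1 with overlapping groups, and Brca1 and Brca2 differed in opposite directions.

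Of the 9 death and survival targets, 4 were higher, 2 lower and 3 did not pass, and the gene with the largest change was Fas. Fas (chromosome 19, 34290666 to 34327772, plus strand), a death receptor on the cell surface, had 223, 194 and 163 reads in WT and 30.3, 30.2 and 40.7 in Piezo1cKO LSCs. Every Piezo1cKO library was far below every WT library, at 17.5% of the WT mean (log2 fold change -0.77, standard error 0.05, adjusted p = 8.75e-11). Ei24, a membrane protein of the endoplasmic reticulum first found as a p53-induced gene, fell to 77.7% (log2 fold change -0.21, adjusted p = 7.64e-05). Tnfrsf10b, the mouse TRAIL receptor, went the other way from Fas at a much lower level, from 7.89 ± 2.82 reads in WT to 18.6 ± 5.57 in Piezo1cKO LSCs (SD, n = 3, adjusted p = 0.0111), and this call was lost without WT replicate 1 or Piezo1cKO replicate 1 (adjusted p = 0.0504 and 0.0651). Phlda3, which restrains the survival kinase Akt, had 50.5, 66.6 and 38.5 reads in WT and 103, 118 and 107 in Piezo1cKO LSCs. It rose 2.11-fold with no overlap (log2 fold change 0.30, standard error 0.04, adjusted p = 1.04e-05).

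Trp53inp1, a nuclear protein that aids p53-dependent death and autophagy, rose 2.37-fold, from 34.9, 24.2 and 23.1 reads to 81.5, 59.5 and 53.9 (log2 fold change 0.23, standard error 0.04, adjusted p = 9.91e-05). Perp, a membrane protein of cell junctions and death, rose at a low level, from 13.3 ± 6.13 to 28.3 ± 5.19 reads (SD, n = 3, adjusted p = 0.00604). Zmat3, an RNA-binding p53 target, had 8.5 and 16.2 reads on average and overlapping groups. It did not pass on the deposited values (adjusted p = 0.058) but did on reads (adjusted p = 0.0475, limma-voom). Tigar, a phosphatase that slows glycolysis, had 118% of the WT reads (adjusted p = 0.0603), and Aen, a p53-induced nuclease, 94.8% (adjusted p = 0.186). The Zmat3 call also appeared without WT replicate 1 or Piezo1cKO replicate 3 (adjusted p = 0.0277 and 0.0281) and that of Tigar without WT replicate 2 (adjusted p = 0.0265).

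Of the 3 repair targets, Xpc alone passed. Xpc, which senses distorted DNA for nucleotide excision repair, had 4173, 4316 and 4262 reads in WT and 4905, 5037 and 5117 in Piezo1cKO LSCs. The groups did not overlap (log2 fold change 0.17, standard error 0.02, adjusted p = 4.52e-06). Ddb2, its partner in the sensing of ultraviolet damage, had means of 109 and 110 reads, with a 95% interval of the log2 fold change from -0.08 to 0.09 (adjusted p = 0.916). Acp2 on the other strand covers 23.8% of the Ddb2 exon bases. Polk, a translesion polymerase, had means of 602 and 599.6 reads, with an interval from -0.08 to 0.07 (adjusted p = 0.934).

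The damage kinases differed little in level. Atm, which responds to double-strand breaks, had 176, 179 and 160 reads in WT and 219, 217 and 226 in Piezo1cKO LSCs, 1.29-fold higher without overlap (log2 fold change 0.16, standard error 0.04, adjusted p = 0.00105). Chek2, the kinase Atm activates, was 1.16-fold higher, with 695, 628 and 669 reads against 805, 759 and 745 (log2 fold change 0.13, standard error 0.03, adjusted p = 0.00295). Atr, which responds to stalled replication forks, had 257, 218 and 216 reads in WT and 203, 189 and 198 in Piezo1cKO LSCs. It was lower at 85.5% (log2 fold change -0.10, standard error 0.04, adjusted p = 0.0357), but did not pass on reads (adjusted p = 0.0501, limma-voom) nor in 3 of 6 fits that left out 1 library, those without WT replicate 1 or Piezo1cKO replicates 2 or 3 (adjusted p = 0.187, 0.115 and 0.0707). The call was also lost with median and quantile scaling (adjusted p = 0.106 and 0.149). Chek1, the kinase Atr activates, had 374, 328 and 353 reads in WT and 424, 386 and 363 in Piezo1cKO LSCs. These groups overlapped (log2 fold change 0.08, 95% interval -0.00 to 0.17, adjusted p = 0.0808), and Chek1 passed without Piezo1cKO replicate 3 (adjusted p = 0.0436).

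Among the 6 genes of break repair, 4 were higher, 1 was lower and 1 did not pass. Brca1 (chromosome 11, 101488764 to 101551955, minus strand), which directs broken ends to homologous recombination, had 411, 413 and 407 reads in WT and 336, 326 and 300 in Piezo1cKO LSCs. It fell to 78.1% without overlap (log2 fold change -0.19, standard error 0.04, adjusted p = 0.000157). Brca2, which acts in homologous recombination, rose 1.16-fold, from 625, 589 and 574 reads to 724, 656 and 692 (log2 fold change 0.13, standard error 0.04, adjusted p = 0.00395). Parp1 (chromosome 1, 180568924 to 180601254, plus strand), which marks strand breaks with poly(ADP-ribose), rose 1.27-fold, from 1709, 1832 and 1863 to 2257, 2396 and 2234 reads (log2 fold change 0.24, standard error 0.03, adjusted p = 1.93e-06).

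H2afx, the histone variant phosphorylated around breaks, had 2916, 3103 and 3076 reads in WT and 2989, 3352 and 3542 in Piezo1cKO LSCs. Its groups overlapped, and it passed narrowly (log2 fold change 0.08, standard error 0.04, adjusted p = 0.0482). The call was lost on reads (adjusted p = 0.0516, limma-voom) and in 5 of 6 fits that left out 1 library, being kept without Piezo1cKO replicate 1 alone, with adjusted p in these 6 fits from 0.00129 to 0.316. Xrcc5 and Xrcc6 encode the Ku dimer, which caps broken ends for end joining. Xrcc6 had means of 3014 and 2952 reads and overlapping groups (adjusted p = 0.522). Xrcc5 had 0 recovered reads in each WT library and 5, 8 and 12 in the Piezo1cKO libraries before normalization, at least 2.80-fold higher against a floor of 3 reads per library (adjusted p = 0.000528 on the deposited values). The Ku subunits are known to be stable mainly as a dimer, and so few Xrcc5 reads in all 6 libraries may come from how reads were assigned to the gene, which was not tested. Without Xrcc5, 15 members were higher.

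**Figure D3:**
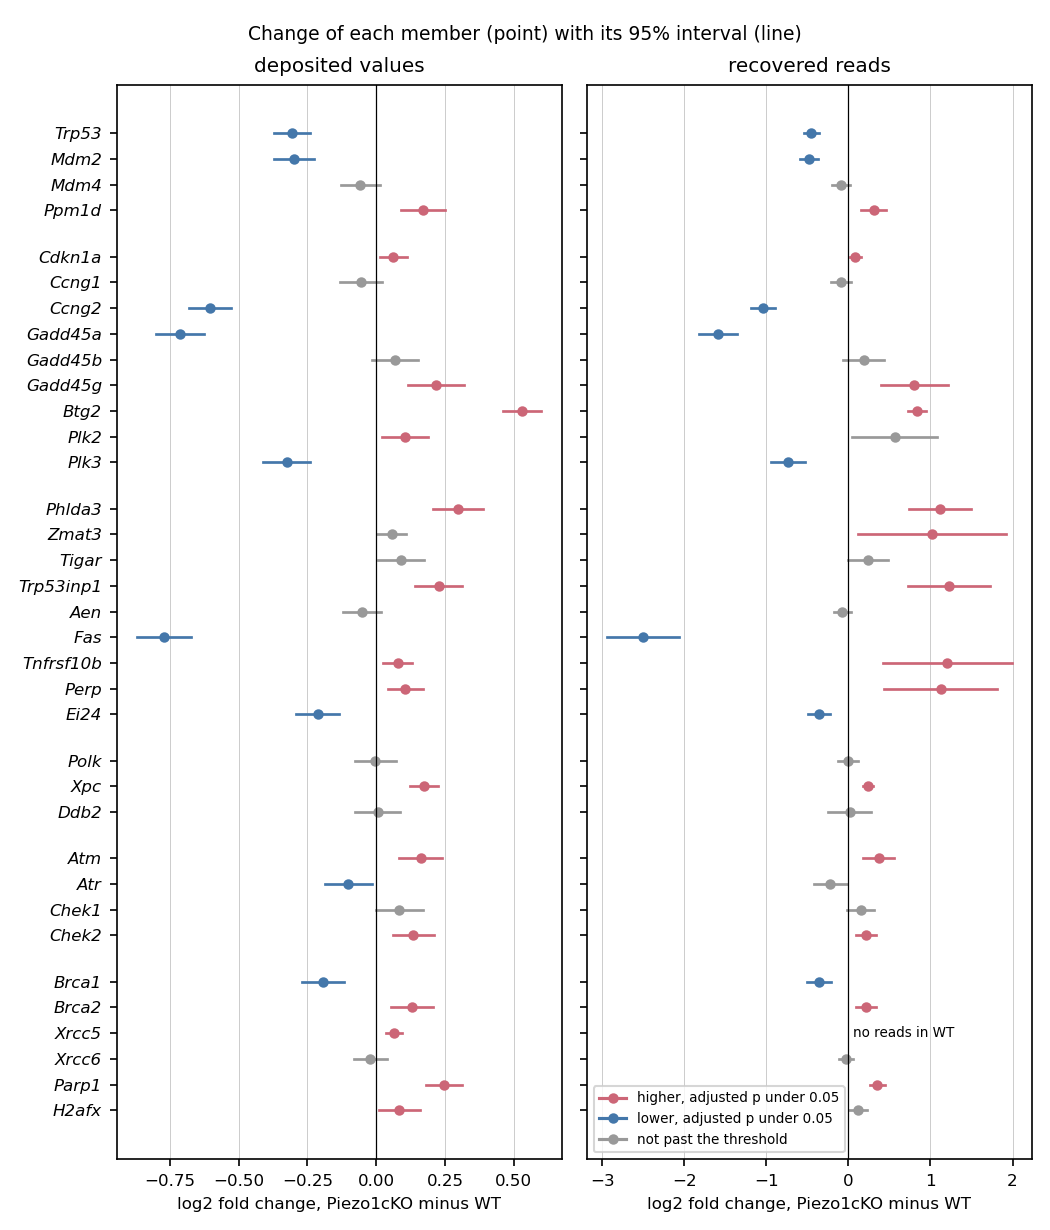
Log2 fold change (x axis, Piezo1cKO minus WT) of each member with its 95% interval, on the deposited values (left, limma) and on recovered reads (right, limma-voom), with separate x scales. Red marks higher, blue lower and grey not past an adjusted p of 0.05. Fas, Gadd45a and Ccng2 lie farthest below 0, Btg2 lies farthest above 0 on the left, and Xrcc5 is left out on the right because WT libraries had 0 reads.

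Set side by side, the 23 targets had 10 higher, 6 lower and 7 not passed, and the 12 upstream and repair genes 6 higher, 3 lower and 3 not passed. The shares that passed, 69.6% and 75%, were near the 63% of all genes (31.6% higher, 31.4% lower). Their median log2 fold changes were 0.06 and 0.07 on the deposited scale, and 0.19 and 0.13 on reads. Over 2-fold on reads were 8 of the 23 targets, 5 higher and 3 lower, and 1 of the 12 upstream and repair genes, Xrcc5, with the doubt given above. The share of all genes fitted past that limit was 24.9%. The median size of the log2 fold change on reads, whatever its sign, was 0.56 for the targets, 0.22 for the upstream and repair genes and 0.44 for all genes. The difference between both sides was not tested, since genes of a list are not replicates.

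Other genes of the pathway gave the setting. Their lists, and those of proliferation and the stress response below, were written from general knowledge with earlier results of these data known. Genes named from these lists were ranked on the deposited scale, which makes changes of genes with few reads smaller, and the order on reads can differ. Of 24 other p53 targets tested, 10 were higher and 8 lower (median log2 fold change 0.01). On the deposited scale Sesn2, which restrains mTORC1, fell most, from 1661 to 230.3 reads (log2 fold change -1.80), and Bbc3, the death protein PUMA, fell from 631 to 240.2 reads (-0.78). Ak1, an adenylate kinase, rose from 16.4 to 163 reads (0.81). Of 16 other regulators of p53 tested, 7 were higher and 2 lower. On reads, 1 regulator was over 2-fold higher, Sirt1, and 1 over 2-fold lower, Cdkn2a. Cdkn2a had few reads, with means of 6.86 in WT and 1.73 in Piezo1cKO LSCs (adjusted p = 0.00638, limma-voom). On the deposited scale the 3 with the largest changes rose, namely Pml (302.5 to 529 reads, log2 fold change 0.45), which gathers p53 in nuclear bodies, the deacetylase Sirt1 (20.3 to 83.9 reads, 0.38) and the kinase Hipk2 (180.2 to 272 reads, 0.28).

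The repair pathways differed in the balance of their calls, which stand beside 31.6% higher and 31.4% lower over all genes tested. Of 15 homologous recombination genes, 11 were lower and 1 was higher (median log2 fold change -0.14), led by Palb2, which joins Brca1 to Brca2 (314 to 159 reads, -0.46), Exo1 (-0.28) and Rbbp8 (-0.27), which resect DNA ends. Of 8 end joining genes, 7 were higher and none lower (median 0.16), led on the deposited scale by Paxx (106 to 193 reads, 0.33), Nhej1 (0.25) and Polm (0.19). On reads, Polm changed most of them (15.1 to 43.8 reads). Checkpoint and damage signalling had 5 higher and 9 lower of 18, with Wee1 (-0.40), Rad9a (-0.40) and Hus1 (-0.31) falling most. Rad9a and Hus1 belong to the same clamp. Base excision and single-strand break repair had 7 higher and 1 lower of 14, led by the glycosylases Mpg (0.35), Ogg1 (0.30) and Ung (0.27). Mismatch repair had 1 higher and 4 lower of 7, led by Pms1 (-0.19) and Msh6 (-0.16). The Fanconi anaemia list had 1 higher and 5 lower of 11, led by Fancf (96.1 to 12.1 reads, -0.53), Fancd2 (-0.35) and Fanci (-0.28). Nucleotide excision repair was divided, with 5 higher and 6 lower of 14, led by Gtf2h1 (-0.38), Cetn2 (0.33) and Ercc5 (0.24). Translesion synthesis had 3 higher and 3 lower of 7, led by Rev1, which fell from 1991 to 823 reads (-0.86), Poli (0.32) and Mad2l2 (0.22). All these genes passed an adjusted p of 0.05 (limma), and the differences between lists were not tested.

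**Figure D4:**
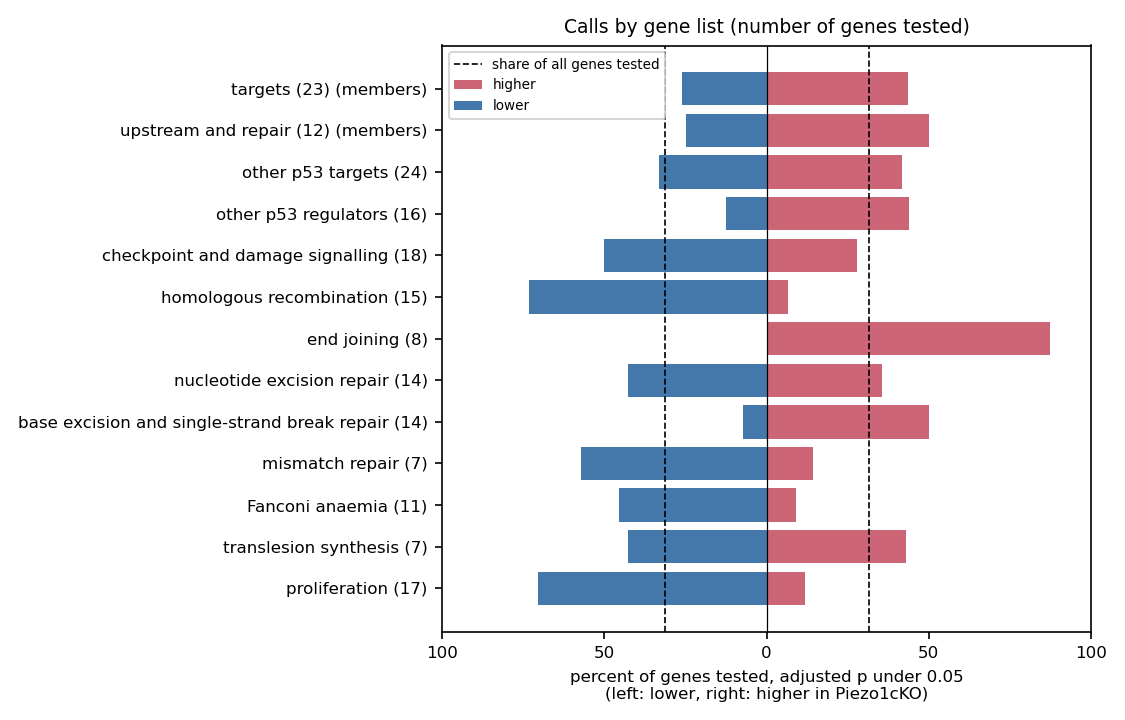
Percent of the genes tested in each list that passed an adjusted p of 0.05 (x axis), higher in Piezo1cKO to the right and lower to the left, with the shares of all genes as dashed lines (31.6% and 31.4%). The bars of homologous recombination and proliferation lie mainly on the lower side and those of end joining and base excision repair on the higher side, while both sets of members lie on both sides.

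Proliferation and a stress program moved with the genotype. Of 17 proliferation genes, 12 were lower and 2 higher, and their reads summed to 76702 to 77396 in WT and 66647 to 67766 in Piezo1cKO libraries, with Top2a (-0.42), Rrm2 (-0.41) and Mcm5 (-0.27) leading. Many genes of homologous recombination are known to be expressed most in dividing cells. Of 8 genes of the stress response of ATF4 and CHOP, 7 were lower and none higher, from sums of 8500 to 8627 reads to 2249 to 2256, with Trib3 (-3.17), Nupr1 (-2.56) and Asns (-2.24) leading. Sesn2, Bbc3 and Gadd45a, which fell, are known targets of this response as well as of p53. Tnfrsf10b and Pmaip1, known targets of both too, rose (log2 fold change 0.08 and 0.07, adjusted p = 0.0111 and 0.0167, limma). The part of either in the members' changes was not tested.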

How the data were processed

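RNA-seq of 3 WT and 3 Piezo1cKO LSC libraries was analysed. Per the submitters' processing notes, the authors trimmed reads with fastp 0.20.1, aligned them to GRCm38 (HISAT2 2.2.1), counted with featureCounts 2.0.1 and normalized with DESeq2 1.28.1. The annotation release and strand setting are not given in the sources used here. The deposited table holds log2 values in the form of a regularized log, made by the authors from counts. Of 55367 genes, 28965 were listed at 0 throughout. Genes with a mean of at least 1 (16746) entered a two-sided limma-trend fit (limma 3.58.1 in R 4.3.3) of genotype alone, with Benjamini-Hochberg adjustment over these genes. The smallest two-sided p that an exact permutation test could give here is 0.1.

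The transform was undone by fitting size factors and shrinkage until values were whole, from 63 starting points. Where the mean was 1 read or more, 92.7% of values came out within 0.1 of a whole read, and 22.2% did when the shrinkage was 10% off. Reads of 17352 genes with at least 10 in total were fitted with limma-voom. They carry no molecular identifiers, so floors cover counting error only. In simulated data of 18035 genes, 200 of 200 changed genes were found on either scale, and the fitted change was at the median 0.649 (deposited scale) and 0.999 (reads) of the simulated one. Recovered reads had been planned as an alternative, whereas the 2-fold limit and library totals for them, and the members without Xrcc5, were added after the values were seen.

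The members and gene lists were chosen with earlier results of these data known. Library values were given, in each role, for the 3 passing members with the largest changes and no overlap between groups, and for Trp53, Mdm2, Cdkn1a, Atm, Chek1, Brca1 and H2afx. Library values of Plk2 and Xrcc5, and the remarks on Gadd45, cyclin G and polo-like kinase relatives, were chosen after values were seen. From each other list, up to 3 passing genes with the largest changes were named, and Pmaip1 and Cdkn2a were added after values were seen. A gene that this rule names is not reported here. Coordinates and exon lengths came from GENCODE release M21 (GRCm38), in which 10 members share exon bases with a gene on the other strand, and promoter sequences from RefSeq (GRCm38.p6). A planned comparison of Gadd45 proteins was not run. Alternatives were no filter, a mean of at least 5, median and quantile scaling, a replicate block, each library left out and a 2-fold limit. Scripts ran in Python 3.11.15 (pandas 2.3.3, numpy 2.4.6, scipy 1.17.1), and matplotlib 3.10.9 drew the figures.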

Additional observations from a re-analysis of the deposited data

How the results depend on the processing

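With a 2-fold limit, 0 members were higher and 0 lower on the deposited scale (limma), and 6 higher and 3 lower on recovered reads. The targets' median log2 fold change of 0.061 became 0.033 with a mean of at least 5, 0.089 with median scaling, 0.187 on recovered reads and 0.206 on library totals. That of the upstream and repair genes, 0.074, became 0.134 and 0.153 on recovered reads and library totals. With each library left out in turn it ran from 0.048 (without Piezo1cKO replicate 3) to 0.075, and that of the targets from 0.051 to 0.07. Members higher then ran from 13 to 16 and lower from 8 to 9. Differences near 0 changed sign for Polk (0.025 with median scaling, 0.013 with quantile scaling, 0.011 on library totals, and -0.024 to 0.021 with a library left out), Ddb2 (-0.002 with quantile scaling, -0.012 to 0.028 with a library left out) and Xrcc6 (0.015 with median scaling, -0.041 to 0.005 with a library left out). None of these passed the test, and the cause was not tested.

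The replicate numbers of the labels were checked for pairing. Same-numbered libraries deviated together with correlations of 0.195, 0.161 and 0.07, and differently numbered ones with correlations from -0.170 to 0.030. Every WT library thus correlated best with its own number. Whether same-numbered libraries shared a batch or were paired cannot be told from these weak correlations, and the main fit leaves the number out. Over all genes, 10556 passed in the main fit and 11055 with a replicate block. With a replicate block, 19 members were higher and 9 lower, since Zmat3, Tigar and Chek1 passed as well (adjusted p = 0.0432, 0.0498 and 0.0441). Without a filter on low values, Cdkn1a, Plk2, Atr and H2afx no longer passed (adjusted p = 0.0503, 0.063, 0.0547 and 0.114). With median scaling Atr no longer passed (adjusted p = 0.106), and with quantile scaling neither Atr nor Plk2 did (adjusted p = 0.149 and 0.131), whereas Tigar (0.0224 and 0.0244) and Chek1 (0.0245 and 0.0329) passed with both and Zmat3 (0.0248) with median scaling. Reads under 10 limit what can be said of Xrcc5, Zmat3 and Tnfrsf10b, and of Perp, which had 9.08 reads in WT replicate 2.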

Other observations

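Other motifs were counted in the same promoter windows of 28 members and 27025 genes, on both strands. The CHR element (TTTGAA), found at genes of the late cell cycle, was present in 2 members (7.14%) and in 20.2% of all genes. The CCAAT box was present in 15 members (53.6%) and in 41.1% of all genes, and the E2F site (TTTNNCGC) in 5 members (17.9%) and in 5.93% of all genes. The composite C/EBP-ATF site (TGATGNAAT) was present in 0 members and in 1.08% of all genes. These counts are descriptions of letters in a window.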
